A study of Homo sapiens with 2 samples.

Results

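The 6 genes described here encode subunits of the oligosaccharyltransferase, the enzyme of the endoplasmic reticulum that attaches N-linked glycans to proteins: STT3A and STT3B, the catalytic subunits, and RPN1, RPN2, DDOST and DAD1, which both forms of the complex share. They were taken by Ensembl gene ID, and all 6 were found among the 57820 IDs of the count table. Each symbol is the one given with its ID in the list of members. Neither the count table nor the reference table pairs IDs with names, so this pairing could not be checked against the data. The measurements are ribosome footprints, the mRNA fragments that ribosomes protect from RNase I, in 2 libraries of HEK293 cells, a widely used line that was established from human embryonic kidney. Both libraries came from vehicle controls kept in DMSO for 12 h under basal conditions, without heat shock, replicate 1 in batch 1 and replicate 2 in batch 2. Minocycline-treated cells and RNA-seq are not analysed here, so the values compare genes within a library and the libraries with each other, not conditions.

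The oligosaccharyltransferase transfers a preassembled glycan from a dolichol lipid to asparagines in Asn-X-Ser or Asn-X-Thr sequences of proteins in the lumen of the endoplasmic reticulum. Mammalian cells make 2 forms of it. The form with STT3A binds the protein-conducting channel and glycosylates nascent chains as they enter the lumen. The form with STT3B can also act on sites that the first form skipped, and it carries an oxidoreductase subunit, MAGT1 or TUSC3. Because each complex has a single catalytic subunit and each of the shared ones, the balance of STT3A, STT3B and the shared subunits is a usual way to describe the enzyme.

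Replicate 1 held 865838 counts and replicate 2 held 611266 counts over all IDs, so a count of 3, the limit that a count of 0 allows, corresponds to 3.46 and 4.91 CPM (counts per 1000000 counts of the library). The 2 highest IDs of the table, ENSG00000210082.2 and ENSG00000211459.2, together took 17.6% of replicate 1 and 23.2% of replicate 2. This lowers the CPM of every other ID in replicate 2 by more. A footprint count rises with the amount of mRNA, the ribosomes on each mRNA and the length of the coding sequence, and in bulk cells also with the number of cells that make the mRNA, and these cannot be told apart here. Coding lengths were not available to the analysis, so the counts of different subunits are set side by side as counts, not as levels of protein synthesis.

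The annotated start of the mRNA is where the small ribosomal subunit is recruited, and its first bases are shown for the members that have an entry in the RefSeq promoter table (GRCh38.p14), 4 of the 6. Each line gives 20 bases before the annotated start in lower case and the first 10 transcribed bases in capitals. The RPN2 window is chr20:37179310-37179339 on the plus strand, that of DDOST chr1:20661360-20661389 on the minus strand, that of STT3A chr11:125592832-125592861 on the plus strand and that of DAD1 chr14:22589215-22589244 on the minus strand.
RPN2: cggaagtcagcccgcggctcGGACTCCGGC
DDOST: cggtgtgcacgtgctgggtcCTTCGGCAGG
STT3A: aggcggacccggctcctgccAGGGTTGGGT
DAD1: ggtgcgcatgcgcaaacagcACATCCGGTG
A terminal oligopyrimidine start was searched on the mRNA-sense strand, as a first base C followed by 4 bases that are each C or T. Such a start was in 0 of these 4 starts and in 4.07% of the 35116 starts of the table. DDOST began with C, and the other starts with G or A. The letters ATG occurred within the first 50 transcribed bases of RPN2, DDOST and STT3A, at positions 28, 20 and 25 counted from 1 at the start, and not in those of DAD1. Of all starts in the table, 40.2% held ATG there. These are matches of letters in the annotated starts, and the starts used in HEK293 cells were not measured.

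Together the 6 subunits reached 7408 CPM in replicate 1 (exact Clopper-Pearson interval at 95%, 7228 to 7591) and 6613 CPM in replicate 2 (6411 to 6819), or 7010.5 ± 563 CPM (SD, n = 2). That was 0.741% of all counts in replicate 1 and 0.661% in replicate 2. All 6 were far above the limit of detection. By mean CPM they ranked between 38 and 344 among the 16465 IDs above 0 in either library. These intervals hold for counting error alone and for independent fragments, which PCR copies of a fragment, not marked here by molecular identifiers, are not. Nothing in the labels says that the libraries came from independent cultures, so the SD may be partly technical.

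Of the catalytic subunits, STT3A (ENSG00000134910.8) carried the most footprints of all 6 members, with 1700 counts in replicate 1 and 1082 in replicate 2, or 1867 ± 137 CPM (SD, n = 2). It ranked 38 by mean CPM, and its interval ran from 1871 to 2059 CPM in replicate 1 and from 1666 to 1879 CPM in replicate 2. STT3B (ENSG00000163527.5), the catalytic subunit of the other form, had 366 counts in replicate 1 and 201 in replicate 2, or 376 ± 66.4 CPM (SD, n = 2), and ranked 344. The 2 genes did not overlap in either library: STT3A had 4.64 times the count of STT3B in replicate 1 (95% exact interval 4.15 to 5.21) and 5.38 times in replicate 2 (4.63 to 6.29). Put as a share of their summed count, STT3A held 82.3% of 2066 counts in replicate 1 (80.6 to 83.9) and 84.3% of 1283 counts in replicate 2 (82.2 to 86.3). As background, STT3B is the longer of the 2 proteins; these counts were not divided by coding length.

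The shared subunits RPN1, RPN2 and DDOST had counts nearer to that of STT3A than to that of STT3B. STT3A still had 1.47 times the count of RPN1 in replicate 1 (1.36 to 1.58) and 1.52 times in replicate 2 (1.38 to 1.67). Against DDOST it had 1.35 times the count in replicate 1 (1.25 to 1.45) and 1.34 times in replicate 2 (1.22 to 1.47). RPN2 (ENSG00000118705.12), or ribophorin II, the homolog of yeast Swp1, had 1599.5 counts in replicate 1 and 1012 in replicate 2, or 1751 ± 136 CPM (SD, n = 2). DDOST (ENSG00000244038.5), the homolog of yeast Wbp1, had 1260 counts in replicate 1 and 807 in replicate 2, or 1388 ± 95.5 CPM (SD, n = 2). RPN1 (ENSG00000163902.7), or ribophorin I, the homolog of yeast Ost1 that lies near the bound ribosome in the STT3A form, had 1159 counts in replicate 1 and 712 in replicate 2, or 1252 ± 123 CPM (SD, n = 2). Their ranks by mean CPM were 40, 62 and 72. Replicate 1 was the higher library in CPM for each of the 3, and for 66.5% of IDs with at least 100 summed counts. The lowest of these 6 values, 1165 CPM for RPN1 in replicate 2, was far above the highest STT3B value, 423 CPM in replicate 1.

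DAD1 (ENSG00000129562.6), a small membrane subunit named for the cell death that follows its loss in a hamster cell line, had the smallest summed count, 330 counts in replicate 1 and 228 in replicate 2. Its level was 381 CPM in replicate 1 (341 to 425) and 373 CPM in replicate 2 (326 to 425), or 377 ± 5.75 CPM (SD, n = 2). It ranked 343, next to STT3B. DAD1 is known to be much the shortest protein of the 6, so its count cannot be set against those of the other subunits as a level.

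**Figure D1:**
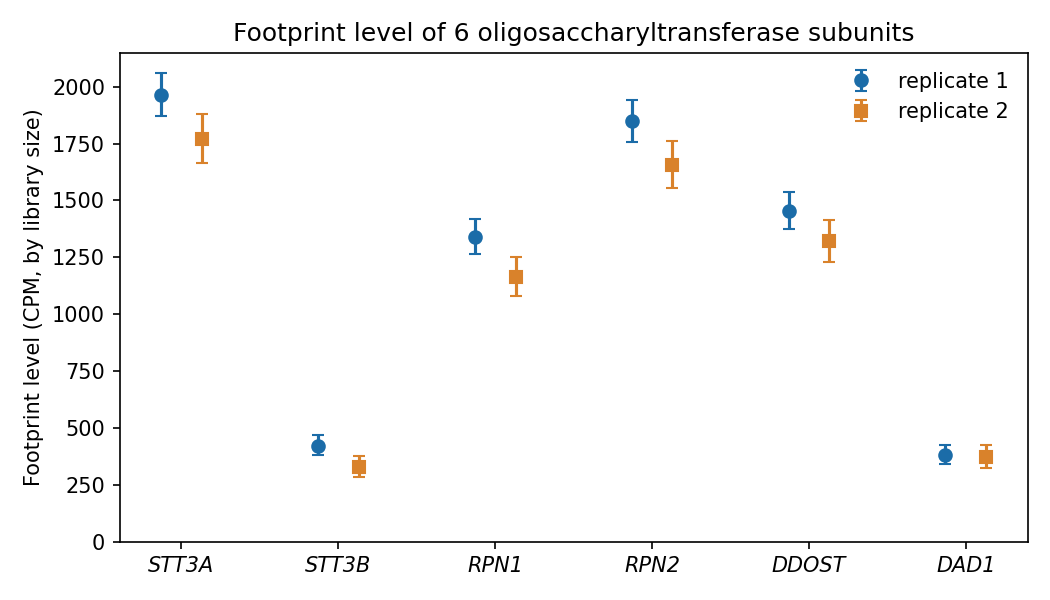
Footprint level in CPM by library size (y axis) of the 6 subunits (x axis) in replicate 1 (blue circles) and replicate 2 (orange squares), with 95% exact Clopper-Pearson intervals of counting error. STT3A, RPN2, DDOST and RPN1 lie between 1165 and 1963 CPM and STT3B and DAD1 between 329 and 423 CPM.

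Ordered by mean CPM, the members ran STT3A, RPN2, DDOST, RPN1, DAD1 and STT3B. Of their 15 pairs, 14 had the same order in both libraries, and in 13 the ratio of counts left out 1 in both libraries. Neither number was computed for other genes, so they are not read as a trait of these subunits. STT3A and RPN2 did not separate: their ratio was 1.06 in replicate 1 (0.992 to 1.14) and 1.07 in replicate 2 (0.980 to 1.17). DAD1 and STT3B changed places, with a ratio of DAD1 over STT3B of 0.902 in replicate 1 (0.775 to 1.05) and 1.13 in replicate 2 (0.934 to 1.38). DDOST over RPN1 was 1.09 in replicate 1 (1.003 to 1.18) and 1.13 in replicate 2 (1.02 to 1.26), a step close to counting error. By library size RPN1 in replicate 1 (1339 CPM) lay above DDOST in replicate 2 (1320.2 CPM), and after TMM scaling of the libraries it lay below it, at 1289 scaled CPM for RPN1 in replicate 1 and 1371 for DDOST in replicate 2. The step between RPN2 and DDOST was wider, with a ratio of RPN2 over DDOST of 1.27 in replicate 1 (1.18 to 1.37) and 1.25 in replicate 2 (1.14 to 1.38). The widest step in counts lay between RPN1 and the lowest pair. RPN1 over DAD1 was 3.51 in replicate 1 (3.11 to 3.98) and 3.12 in replicate 2 (2.69 to 3.64). None of these counts was divided by coding length, and DAD1 is much the shortest protein. The order and its steps are therefore of counts, not of levels of protein synthesis.

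The summed count of the catalytic subunits was set against each shared subunit in turn. STT3A and STT3B together had 1.29 times the count of RPN2 in replicate 1 (1.21 to 1.38) and 1.27 times in replicate 2 (1.17 to 1.38). Against DDOST the ratio was 1.64 in replicate 1 (1.53 to 1.76) and 1.59 in replicate 2 (1.45 to 1.74), and against RPN1 it was 1.78 (1.66 to 1.92) and 1.80 (1.64 to 1.98). Against DAD1 it was 6.26 in replicate 1 (5.57 to 7.05) and 5.63 in replicate 2 (4.88 to 6.51). For each of the 4 shared subunits the intervals of the 2 libraries overlapped, and such ratios were not computed for other genes. These are ratios of counts and have not been divided by coding length.

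The make-up of the complex's footprints, which does not depend on library size or scaling, differed between the libraries by at most 0.733 percentage points for any member. STT3A made up 26.5% of the counts of the 6 subunits in replicate 1 (25.4 to 27.6, exact Clopper-Pearson at 95%) and 26.8% in replicate 2 (25.4 to 28.2). RPN2 made up 24.94% in replicate 1 and 25.04% in replicate 2, DDOST 19.6% and 20.0%, and RPN1 18.1% and 17.6%. STT3B had the widest gap in points, 5.71% in replicate 1 (5.15 to 6.30) and 4.97% in replicate 2 (4.32 to 5.69), and DAD1 moved the other way, 5.14% (4.62 to 5.71) and 5.64% (4.95 to 6.40). The intervals of the 2 libraries overlapped for all 6 members. Pair by pair, 0 of 15 count ratios differed between the libraries beyond counting error, by the 95% conditional exact interval of the odds ratio. The 15 pairs are formed from 6 genes and are not independent. Neither the overlap of shares nor the pair count was computed for other genes. Whether a make-up this alike is particular to these subunits was therefore not tested. The pair closest to it was DAD1 over STT3B, whose ratio in replicate 1 was 0.795 times that in replicate 2 (0.620 to 1.02). The counts thus allow a difference of up to this interval, and with 2 libraries no p-value was computed.

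**Figure D2:**
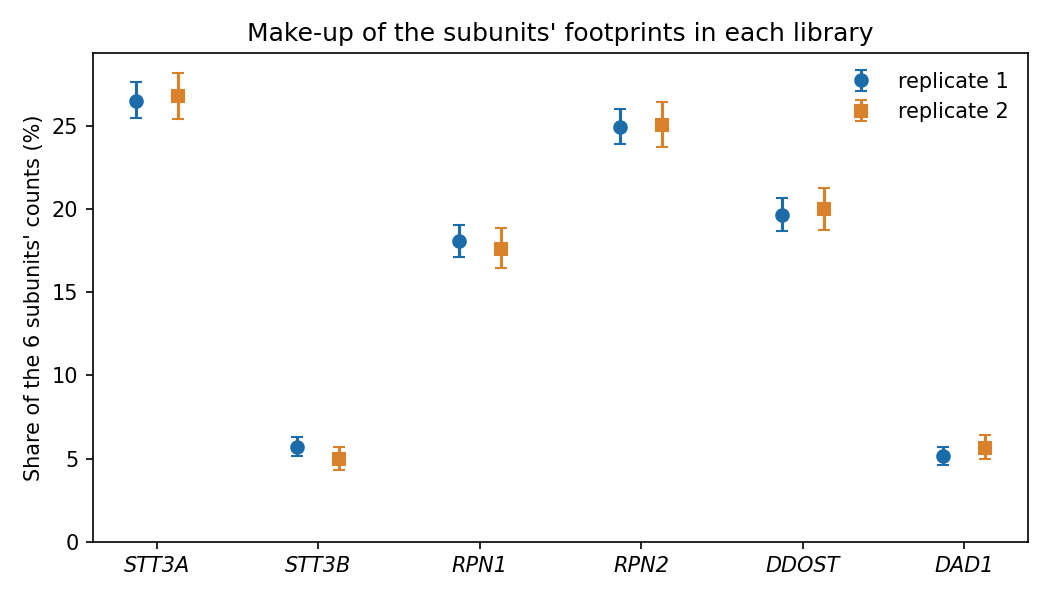
Share of the summed counts of the 6 subunits held by each (y axis, percent), in replicate 1 (blue circles) and replicate 2 (orange squares), with 95% exact Clopper-Pearson intervals. Shares of STT3A were 26.5% and 26.8%, those of STT3B 5.71% and 4.97%, and the intervals of the libraries overlap for every subunit.

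Each subunit was then compared between the libraries as the ratio of replicate 1 over replicate 2 after TMM scaling, with a 95% conditional exact binomial interval, as was done for all 2241 IDs with at least 100 summed counts. STT3B had 407 scaled CPM in replicate 1 and 342 in replicate 2, a ratio of 1.19 (1.0007 to 1.42), and its interval only just left out 1. The other catalytic subunit, STT3A, had 1891 scaled CPM in replicate 1 and 1839 in replicate 2, a ratio of 1.03 (0.952 to 1.11). Among the shared subunits, RPN1 had a ratio of 1.07 (0.970 to 1.17), RPN2 of 1.03 (0.956 to 1.12) and DDOST of 1.02 (0.935 to 1.12). DAD1 was the member lower in replicate 1, with 367 scaled CPM against 387 in replicate 2 and a ratio of 0.947 (0.798 to 1.13). For the sum of the 6 the ratio was 1.04 (0.999 to 1.08).

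By this interval 1 of the 6 members, STT3B, left out a ratio of 1, where 37.9% of all IDs tested did (22.3% higher in replicate 1 and 15.6% higher in replicate 2). Wholly beyond 2-fold lay 0 of 6 members, where 0.803% of all IDs did, and 0 of 6 lay beyond 1.5-fold, where 4.24% of all IDs did. In direction alone, 5 of the 6 members were higher in replicate 1, where 56.8% of all IDs were. The STT3B call was lost with DESeq2 size factors (log2 ratio 0.25, interval -0.0040 to 0.50), and over the scalings run the log2 ratio of STT3B lay between 0.16 and 0.36. Scaling by library size moved the log2 ratio of every ID by 0.11 towards replicate 1. All 6 members were then higher in replicate 1, where 66.5% of all IDs tested were. The interval left out 1 for 5 of the 6, all but DAD1, where 31.4% of all IDs left out 1 in that direction.

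**Figure D3:**
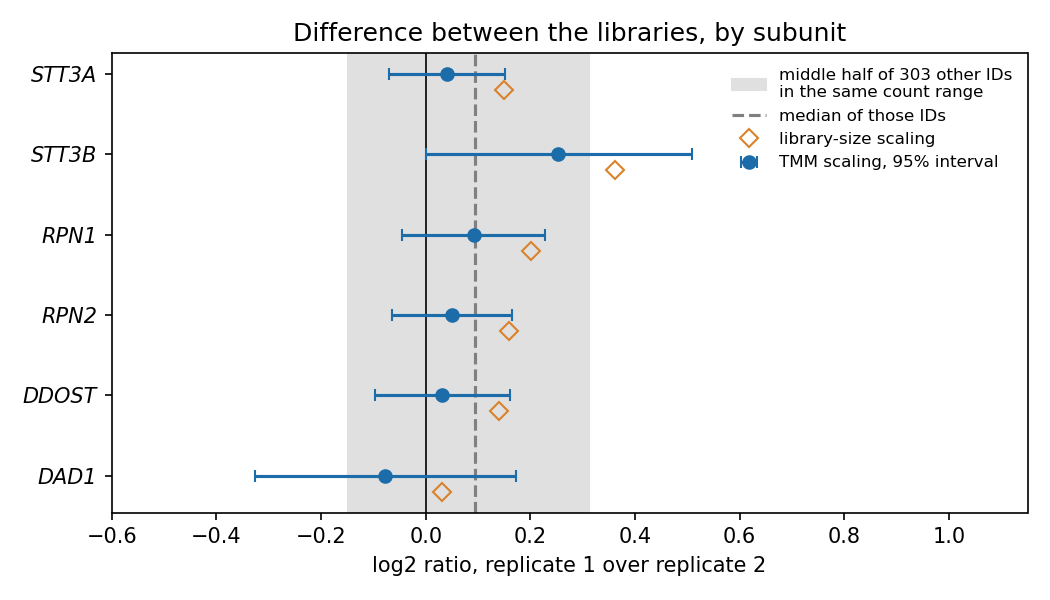
Log2 ratio of replicate 1 over replicate 2 (x axis) for each subunit after TMM scaling (blue, with 95% exact intervals) and after library-size scaling (orange diamonds). The grey band holds the middle 50% of 303 other IDs in the same range of summed counts, and the dashed line is their median, 0.09. All 6 subunits lie inside the band after TMM scaling, and the interval of STT3B alone leaves out 0.

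On the log2 scale the members ran from -0.08 for DAD1 to 0.25 for STT3B, with a median of 0.04 and an SD over the members of 0.11. Other IDs in the same range of summed counts, 558 to 2782, numbered 303 and had a median of 0.09, an SD of 0.42 and a range of -1.33 to 1.30. Among these 303 IDs the interval left out 1 with a higher value in replicate 1 in 34% and with a higher value in replicate 2 in 23.4%, where 1 and 0 of the 6 members did. For all 2241 IDs tested the median was 0.07 and the SD 0.49. The absolute log2 ratio was larger than that of DDOST in 93.4% of the 303 IDs, than that of STT3A in 91.7%, of RPN2 in 89.8%, of DAD1 in 81.2% and of RPN1 in 77.9%. STT3B lay in the middle, with a larger value in 50.2% of them. The range of counts was set by the members themselves after their values were known, so these shares describe where the members lie and test nothing. Against the median of these 303 IDs in place of TMM, STT3B alone remained higher in replicate 1 (log2 ratio 0.16, -0.09 to 0.41). In either direction, 0 of 6 intervals then left out 1. Of all IDs tested, 16.1% left it out with a higher value in replicate 1, and the share with a higher value in replicate 2 was not computed. Since batch and replicate are one and the same here, a difference between the libraries cannot be told apart from a difference between batches.

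**Figure D4:**
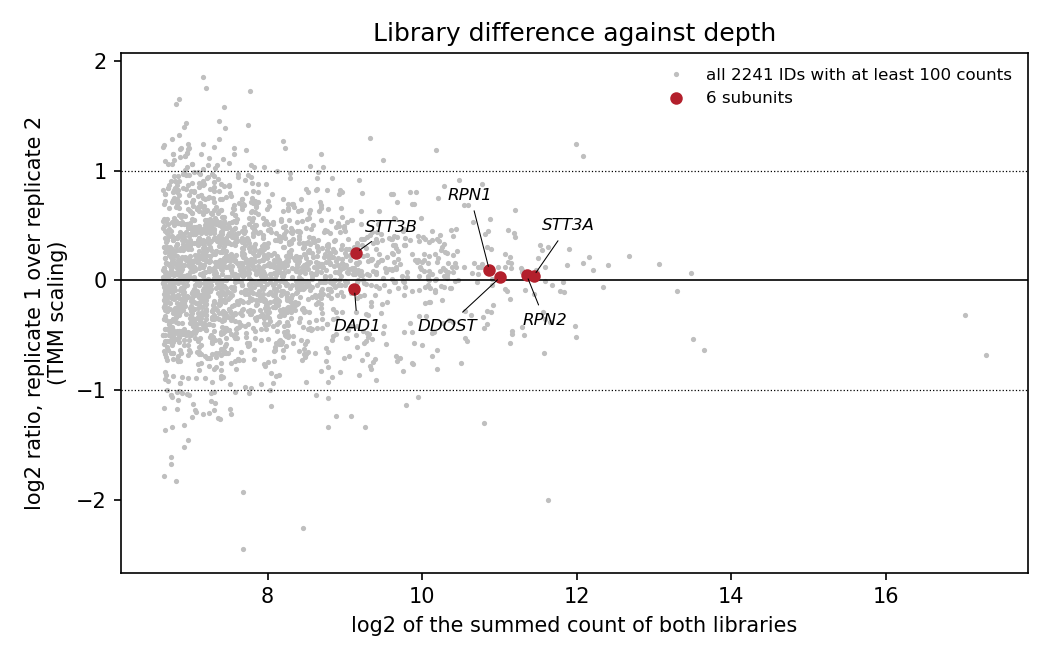
Log2 ratio of replicate 1 over replicate 2 after TMM scaling (y axis) against the log2 summed count (x axis) for all 2241 IDs with at least 100 summed counts (grey) and the 6 subunits (red). Dotted lines mark a 2-fold difference, and the subunits lie between -0.08 and 0.25 while IDs at the same counts reach -1.33 and 1.30.

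How far a count belongs to a single gene could be judged only from the positions of whole genes and, for pseudogenes, from names. In the RefSeq gene table, RPN1, STT3B and DAD1 overlapped no other gene, RPN2 overlapped MROH8, DDOST overlapped PINK1-AS, and STT3A overlapped the antisense gene STT3A-AS1. A pseudogene, DAD1P1, carries the name of DAD1. Overlaps were taken over whole gene spans, without regard to exons or strand. The strand setting of the counting is not given in the sources used here. Whether reads of STT3A-AS1 entered the count of STT3A is therefore not known. How reads were split between the genes of the other overlaps is uncertain too. RPN2 in replicate 1 was the single non-whole value among the members, 1599.5 counts, where 15.2% of the values above 0 in that library were not whole.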

How the data were processed

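Ribosome footprints were counted in 2 vehicle libraries. Per the labels' protocols, each came from 2 plates of 15 cm, lysis included cycloheximide, RNase I made the fragments, and those of 20 to 38 nt were gel-purified with ribosomal RNA left in. The authors deposited, per the labels, unscaled counts of 27 to 29 nt fragments per Ensembl ID; some of the authors' values are not whole, for a reason not stated, so they were treated as estimated counts. Submitters' processing notes name hg19. Aligner, counting tool, annotation and strand setting: not given in the sources used here.

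CPM used the sum of all IDs. Values were rounded for intervals and scaling. TMM scaling (edgeR 4.0.16 in R 4.3.3) used IDs with at least 20 summed counts, and DESeq2 1.42.0 size factors were an alternative. Shares were given exact Clopper-Pearson intervals, and ratios conditional exact binomial intervals, all at 95%. The interval step was tested on simulated data with counting error alone. There 4.47% of unchanged IDs left out 1, and intervals held the true ratio for 95.5% of them and for 90% of IDs changed 2-fold. In the libraries themselves 37.9% of all IDs tested left out 1, so the simulation does not cover the spread of these data. The series has 1 group, so no contrast was tested and no p-value computed.

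All 6 members are named. The members and lists were chosen with earlier results of these data known. The reference table (59792 genes) lists an Ensembl ID for 0 genes, so the lists of other subunits, of lipid-linked oligosaccharide assembly, of the translocon and of glycan trimming could not be applied, and HEK293 markers were not checked. Coding lengths were not at hand, so the planned values per codon were not computed. Sequences were read from RefSeq tables with Python 3.11.15.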

Additional observations from a re-analysis of the deposited data

How the results depend on the processing

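The summed level of the 6 subunits, 7010.5 CPM, became 8801 CPM when the total excluded the 2 highest IDs and 9374 CPM when it excluded the 10 highest, as follows from the smaller totals. Leaving out each library gave 6613 to 7408 CPM. TMM scaling gave 7002 CPM, within 1 SD. It lowers CPM in replicate 1 and raises it in replicate 2, so a mean that moves little follows from the method. RPN2 has a non-whole value, and the other 5 subunits summed to 5259 CPM, which became 7560 CPM when the total excluded every ID with a non-whole value, again through the smaller total (chosen after the data were seen). The count of members beyond 2-fold was 0 under each alternative run. By TMM 0.803% of all IDs tested were beyond it, and that share was not computed for the other scalings or for 99% intervals. The count whose interval left out 1, 1 by TMM, was 5 by library size, 0 with DESeq2 size factors, 0 with 99% intervals and 0 by the median ratio of IDs in the same count range (also chosen after seeing the data). Of all IDs tested, 37.9% left out 1 by TMM in either direction. With a higher value in replicate 1, 31.4% did by library size and 16.1% by that median ratio. For DESeq2 size factors and for 99% intervals the share of all IDs was not computed, so those counts have no background. Under that median the log2 ratios of RPN1, RPN2, DDOST and STT3A turned to -0.0031, -0.045, -0.063 and -0.054, and that of DAD1 turned to 0.031 by library size and 0.0016 with TMM over IDs of at least 1 summed count. These turns follow from shifts of the scaling that are common to all IDs. No paired analysis was possible because the series holds 1 group. The order and ratios per codon, and their alternatives, were not run for want of coding lengths. Depth limits STT3B and DAD1, whose intervals span 1.42-fold and 1.41-fold.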
